A study of Mus musculus with 5 samples.

Results

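Y RNAs and vault RNA are short noncoding RNAs made by RNA polymerase III, and the 3 genes described here, Rny1, Rny3 and Vaultrc5, were picked by symbol from the 55385 genes of the count files. All 3 are annotated as misc_RNA, a class for short RNAs without a class of their own. The libraries are Surface-seq libraries from EL4, a mouse T lymphoma line, and every library was made from nanoparticles coated with EL4 cell membrane. For variation A (3 libraries), RNA was extracted from the coated particles before both adaptors were ligated, so RNA on either side of the membrane could be read. For variation B (2 libraries), the 3′ adaptor was ligated on the intact particles, which reaches RNA that faces outwards, and the 5′ adaptor was ligated after the RNA was purified. No library was made from untreated whole cells, and the labels do not say whether the replicates came from separate cultures.

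Y RNAs fold back so that both ends pair into a stem. The protein Ro60 binds that stem, and the La protein (gene Ssb) binds the run of uridines at the 3′ end. Y RNAs are known for roles in RNA quality control and in the start of DNA replication. Vault RNA is a component of the vault, a large hollow ribonucleoprotein particle of the cytoplasm whose shell is built from the major vault protein, Mvp. Both kinds of RNA end in a short T run in the gene, the stop signal of RNA polymerase III. The comparison of variation B with variation A addresses which of these RNAs were reached from outside the membrane relative to all membrane-associated RNA. Differences in library preparation between the variations cannot be told apart from differences in which side the RNA faced. In bulk libraries, fewer particles or cells and less RNA from each cannot be told apart either.

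Rny1 (ENSMUSG00000065701.1) lies on the minus strand and Rny3 (ENSMUSG00000064945.1) on the plus strand of chromosome 6 in genome build GRCm38, with 6343 bases between them. The nearest other gene to both is the pseudogene Rpl31-ps7.

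Vaultrc5 (ENSMUSG00000065145.1), the mouse vault RNA gene, lies at chr18:36801866-36802008 on the plus strand, 2199 bases from Zmat2, and no annotated gene overlapped it or the Y RNA genes. It was the longest of the 3, with 143 bases against 112 for Rny1 and 102 for Rny3. G and C made up 53.8% of its bases. The motif GGTTCGA, the core of the B box with which vault RNA and tRNA genes recruit transcription factor IIIC, was found in Vaultrc5 at bases 65 and 110, and on either strand in 0.153% of the 3934 annotated short noncoding transcripts of 80 to 160 bases in GENCODE M21. A match of letters is a description and not a site. The vault RNA transcript ended in 4 T bases, as did 12.2% of the short transcripts. It had 46 base pairs in its minimum free energy structure from RNAfold, 19 of them between its first 30 and last 30 bases.

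Copies of these RNAs elsewhere in the genome bear on the counts, because reads that mapped to several places were left out. Only annotated transcripts of GENCODE M21 were searched, so copies without an annotation were not looked for. By this sequence search, 18 misc_RNA genes other than Rny3 resembled Rny1, 1 other than Rny1 resembled Rny3, and 1 resembled Vaultrc5. Of these, 2 matched Rny1, and 1 matched Vaultrc5, at 90% identity or more over at least 50 bases. The 18 genes like Rny1 held 0, 1 and 1 counts together in variation A and 43 and 29 in variation B. Reads from near-identical stretches would be missing from all of these genes alike, and their number is not known from the files.

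Total counts were 2301017, 4502174 and 1187117 in the variation A libraries, replicates 1 to 3, and 21862003 and 22980172 in the variation B libraries. Ribosomal RNA and mitochondrial genes took 51.5%, 54.1% and 54.0% of counts in variation A and 25.0% and 26.2% in variation B. Replicate 1 of variation A stood apart from the other libraries of its group. Of its counts without ribosomal RNA and mitochondrial genes, 1.75% fell on snRNA genes, against 26.3% and 28.6% in replicates 2 and 3. The variation B libraries had 1.57% and 0.856% on snRNA genes.

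Rny1 had 140, 544 and 135 counts in variation A and 4488 and 2719 in variation B. As CPM, its counts scaled to a library total of 1e6, its level was 60.8, 121 and 114 in variation A, a mean of 98.5 ± 32.8 (SD, n = 3), and 205 and 118 in variation B, a mean of 162 ± 61.5 (SD, n = 2). The groups overlapped on this scale: variation B replicate 2 lay below variation A replicate 2, and variation A replicate 1 was the lowest of all. The 95% Wilson interval of that lowest value was 51.6 to 71.8 CPM. Such intervals cover the counting error of reads only, and no variation between libraries. The reads carried no molecular identifiers, so copies of the same molecule could not be told apart from separate molecules. As a share of counts without ribosomal RNA and mitochondrial genes, Rny1 took 0.0125%, 0.0263% and 0.0247% in variation A and 0.0274% and 0.0160% in variation B. The group means of this share, 0.0212% in variation A and 0.0217% in variation B, differed by less than the spread within either group. Without variation A replicate 1 the variation A mean was 0.0255%.

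Rny3 had 213, 436 and 108 counts in variation A and 2597 and 2172 in variation B. Its CPM was 92.6, 96.8 and 91.0 in variation A (mean 93.5 ± 3.03, SD, n = 3) and 119 and 94.5 in variation B (mean 107 ± 17.2, SD, n = 2). Variation A was narrow, and variation B replicate 2 fell inside its range, so the groups overlapped. As a share without ribosomal RNA and mitochondrial genes, Rny3 took 0.0191%, 0.0211% and 0.0198% in variation A and 0.0158% and 0.0128% in variation B. On that scale both variation B libraries lay below all 3 variation A libraries, so the order of the groups depended on the denominator.

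Vaultrc5 had 181, 426 and 108 counts in variation A and 1085 and 919 in variation B. Its CPM was 78.7, 94.6 and 91.0 in variation A (mean 88.1 ± 8.36, SD, n = 3) and 49.6 and 40.0 in variation B (mean 44.8 ± 6.82, SD, n = 2). The vault RNA was the only one of the 3 with no overlap between the groups in CPM, and both variation B libraries were the lower ones. On this and the other scales, the share of all genes tested whose groups separated in this way was not counted. Without ribosomal RNA and mitochondrial genes its share was 0.0162%, 0.0206% and 0.0198% in variation A and 0.00662% and 0.00542% in variation B, with the same order of the groups. As a share of short noncoding counts, a scale added after the values were seen, it took 0.1865%, 0.0556% and 0.0490% in variation A. In variation B it took 0.0548% and 0.0572%, so the groups overlapped there. Rny3 overlapped too, while Rny1 was higher in both variation B libraries (0.227% and 0.169%) than in variation A (0.144%, 0.0710% and 0.0613%).

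Trimmed mean of M values (TMM) scaling, which sets library sizes from genes of moderate change, gave factors of 0.880, 0.573 and 0.571 in variation A and 1.88 and 1.85 in variation B. With these factors Rny1 had 69.2, 211 and 199 CPM in variation A and 109 and 64.1 in variation B. Rny3 had 105, 169 and 159 in variation A and 63.1 and 51.2 in variation B on this scale. Vaultrc5 had 89.4, 165 and 159 in variation A and 26.4 and 21.7 in variation B. After TMM scaling the groups overlapped for Rny1, through variation A replicate 1, and did not overlap for Rny3 or Vaultrc5. The plot of levels by library shows both scales.

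**Figure D1:**
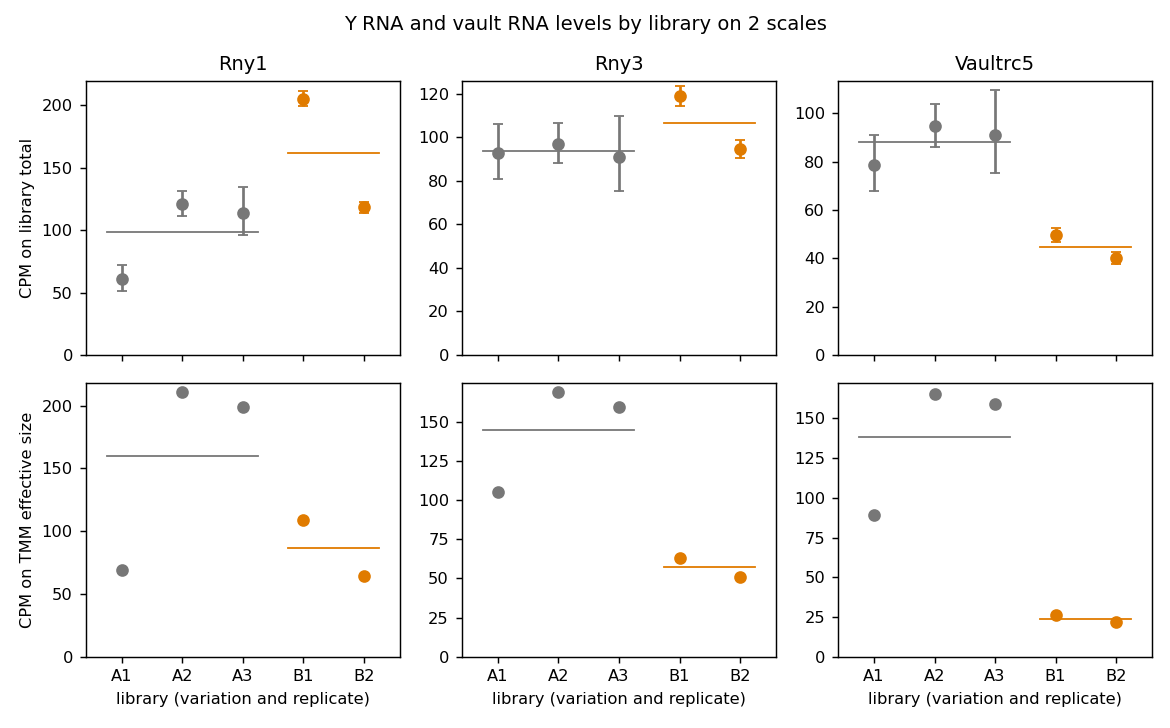
CPM of Rny1, Rny3 and Vaultrc5 in each library (A1 to A3, variation A, grey; B1 and B2, variation B, orange), on the library total with 95% Wilson intervals (top) and on the TMM effective library size (bottom). Horizontal lines are group means; Vaultrc5 is lower in variation B on both scales, while the group means of Rny1 and Rny3 change order between the scales.

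Levels of different genes were compared per kilobase of exon on library totals. In variation A Rny3 stood at 908, 949 and 892 CPM per kilobase, Rny1 at 543, 1079 and 1015, and Vaultrc5 at 550, 662 and 636. Rny1 and Rny3 did not differ beyond their spread there, while Vaultrc5 was the lowest in replicates 2 and 3 and close to Rny1 in replicate 1. In variation B Rny1 stood at 1833 and 1056, Rny3 at 1165 and 927, and Vaultrc5 at 347 and 280. The Y RNAs overlapped with each other in variation B, and both lay above the vault RNA in both libraries. Among all genes ranked per length, Vaultrc5 went from places 46, 47 and 45 in variation A to 152 and 159 in variation B, and Rny3 from 35, 38 and 39 to 84 and 79. Rny1 held places 47, 36 and 33 in variation A and 59 and 75 in variation B.

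Of the 3 genes, all of which passed the filter on low counts, 2 fell and 0 rose in edgeR's quasi-likelihood test with TMM factors and Benjamini-Hochberg adjustment, called at an adjusted p under 0.05 and a fold above 2. DESeq2 made the same 2 calls, and no member with a positive log2 fold change was below an unadjusted p of 0.05 in either tool. Among all 10287 genes tested, 11.0% were called higher in variation B and 12.4% lower, around a median of 0.05 on the log2 scale. Vaultrc5 fell by 2.52 on the log2 scale (SE 0.37, 95% interval -3.37 to -1.66, adjusted p = 0.00441). After TMM scaling it was lower in both variation B libraries than in any variation A library. Rny3 fell by 1.34 (SE 0.33, 95% interval -2.08 to -0.59, adjusted p = 0.0236 in edgeR), with the same separation of libraries after TMM scaling. Rny1 had a log2 fold change of -0.88 (SE 0.50, 95% interval -2.01 to 0.26, adjusted p = 0.217 in edgeR) and was not called.

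The direction for both Y RNAs turned with the scaling: with library totals alone the log2 fold change was 0.72 for Rny1 (adjusted p = 0.190) and 0.19 for Rny3 (adjusted p = 0.612) in edgeR, and -0.98 for Vaultrc5, whose fold was then under 2. That scaling also put the middle of the distribution over all genes at 1.50 on the log2 scale. A change of scaling shifts all genes nearly alike, so values relative to the median of all genes differ little between scalings by construction. They were -0.92 with TMM and -0.78 with library totals for Rny1, -1.38 and -1.31 for Rny3, and -2.56 and -2.47 for Vaultrc5. Over all 15 alternative settings, several of which only change the scaling, these relative values ranged from -1.36 to -0.58 for Rny1, -1.64 to -1.06 for Rny3 and -2.87 to -2.24 for Vaultrc5. With TMM factors from short noncoding genes alone, the median of all genes was -0.61 and Rny3 had a log2 fold change of -1.91 without a call (adjusted p = 0.193 in edgeR).

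Single libraries decided some of these calls in edgeR. Without variation A replicate 1, Rny1 fell by 1.27 and was called (adjusted p = 0.000801, over its alternatives 0.000801 to 0.655). The call of Rny3 was lost without variation A replicate 2 (adjusted p = 0.0863), without variation A replicate 3 (0.0781), without variation B replicate 1 (0.136) and without variation B replicate 2 (0.229), over a range of 2.31e-05 to 0.612. It was also lost without a filter on low counts (log2 fold change -1.12, adjusted p = 0.0701) and with replicate number as a block (-1.23, 0.107). The call of Vaultrc5 was lost without variation B replicate 2 (log2 fold change -2.38, adjusted p = 0.0782, over its alternatives 2.06e-08 to 0.0782). With 1 variation B library left, that library was assumed to vary like those of variation A.

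**Figure D2:**
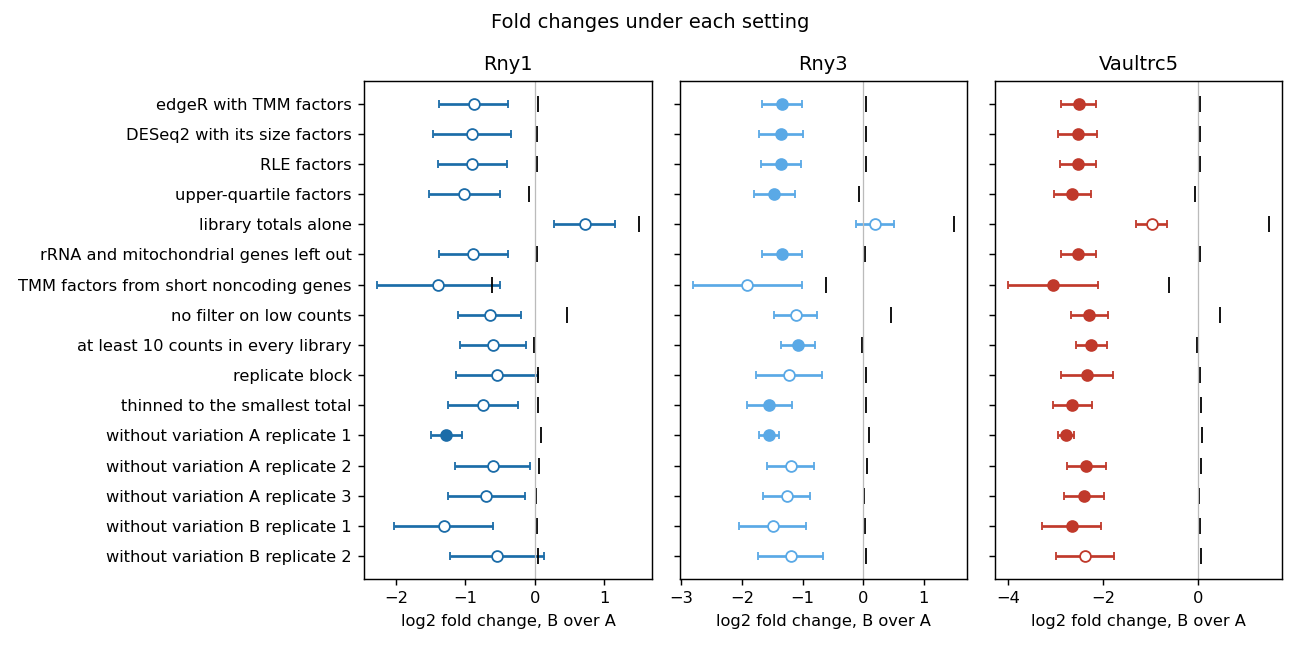
Log2 fold change of variation B over variation A for each gene (points, with 1 SE to each side) under every setting, filled where the gene was called lower, with the median of all genes tested as a black tick. With library totals alone the Y RNAs lie above 0 at 0.72 and 0.19, while all 3 genes lie to the left of the median tick in every setting.

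Ratios of counts within a library need no scaling between libraries. Rny1 and Rny3 together gave 1.95, 2.30 and 2.25 counts per Vaultrc5 count in variation A and 6.53 and 5.32 in variation B. The groups did not overlap, and the lowest variation B ratio was 2.31 times the highest variation A ratio. The mean log2 ratio was 1.11 in variation A and 2.56 in variation B, a difference of 1.45 (two-sided exact permutation test over the 10 assignments of the libraries, p = 0.1, the smallest this design allows, and 0.5 after Benjamini-Hochberg adjustment over 5 such tests). The difference stayed above 1 when any library was left out.

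Both Y RNAs contributed to that difference. Rny3 per Vaultrc5 was 1.18, 1.02 and 1.00 in variation A and 2.39 and 2.36 in variation B. Rny1 per Vaultrc5 was 0.774, 1.28 and 1.25 in variation A and 4.14 and 2.96 in variation B. In variation A the vault RNA was thus counted about as often as Rny3, and in variation B it was counted less often than either Y RNA.

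Set against each other, the Y RNAs differed little between most libraries. Rny1 per Rny3 was 0.657, 1.25 and 1.25 in variation A and 1.73 and 1.25 in variation B, and the log2 difference of 0.54 had p = 0.4 in the same exact permutation test (adjusted 0.667). Variation A replicate 1 held the lowest ratio and variation B replicate 1 the highest, and the other 3 libraries lay close together. Both variation B ratios were above all variation A ratios, but the lowest of variation B was 1.002 times the highest of variation A, well within counting error. Leaving out a library moved the difference between 0.24 without variation A replicate 1 and 0.78 without variation B replicate 2. The 3 genes together took 0.0280% of counts in variation A and 0.0313% in variation B (difference 0.00333, exact permutation p = 0.6, adjusted 0.75). The direction turned when ribosomal RNA and mitochondrial genes were left out, at 0.0601% and 0.0421% (difference -0.0180, exact permutation p = 0.3). Of short noncoding counts they took 0.298% and 0.387% (difference 0.0893, exact permutation p = 0.6).

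**Figure D3:**
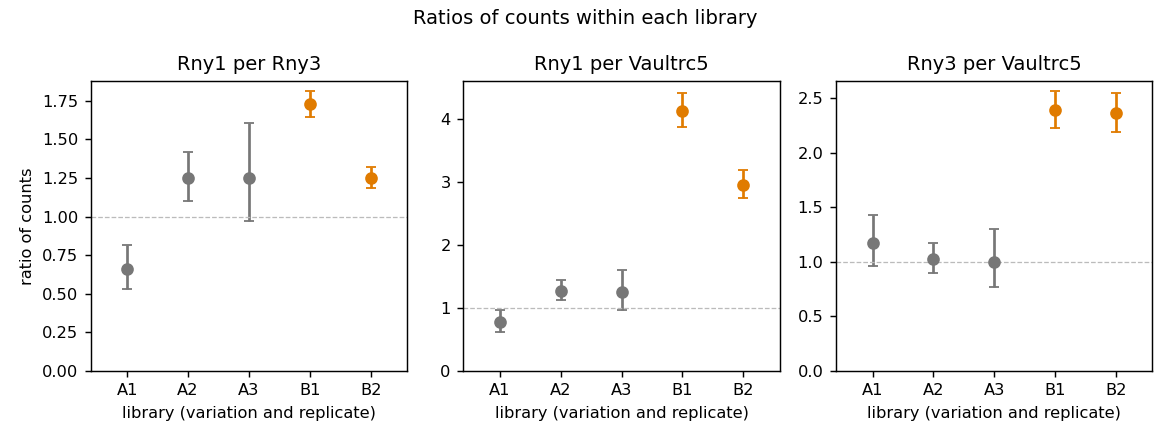
Ratios of counts within each library (A1 to A3, variation A, grey; B1 and B2, variation B, orange) for the 3 pairs of genes, with 95% intervals from the Wilson interval of the share of the pair's counts. Rny1 per Vaultrc5 and Rny3 per Vaultrc5 are higher in both variation B libraries than in any variation A library, while the intervals of Rny1 per Rny3 overlap for replicates 2 and 3 of variation A and replicate 2 of variation B.

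Other abundant short RNAs give a scale for these values. Of 562 misc_RNA genes, 407 had no counts in any library and 11 were tested. Rny1, Rny3 and Vaultrc5 followed Rn7sk, the 7SK RNA that holds the elongation factor P-TEFb inactive, in mean CPM over the 5 libraries. Their order differed between libraries: in variation A replicate 1 Rny3 was at 92.6 CPM, Vaultrc5 at 78.7 and Rny1 at 60.8. Rn7sk had a log2 fold change of -0.34 (SE 0.37, adjusted p = 0.522 in edgeR), a value that turned to 1.12 with library totals alone. There were 0.126, 0.308 and 0.257 Y RNA counts per Rn7sk count in variation A and 0.149 and 0.121 in variation B, and the log2 difference of -0.68 had p = 0.3 in the exact permutation test (adjusted 0.667). The difference moved to -1.07 without variation A replicate 1, where the groups no longer overlapped (exact permutation p = 0.333, the smallest a two-sided test of 2 against 2 allows), and to -0.43 without variation A replicate 2.

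Rpph1, the RNA subunit of RNase P, fell by 2.704 on the log2 scale (SE 0.55, adjusted p = 0.0124 in edgeR). Its counts were 120, 472 and 128 in variation A and 1129 and 694 in variation B. The call was lost in edgeR with library totals alone (-1.11, adjusted p = 0.0763), without variation B replicate 1 (0.0637) and without variation B replicate 2 (0.128). Vaultrc5 per Rpph1 was 1.51, 0.903 and 0.844 in variation A and 0.961 and 1.32 in variation B, so the groups overlapped (log2 difference 0.11, exact permutation p = 0.8, adjusted 0.8). The difference was 0.37 without variation A replicate 1, 0.34 without variation B replicate 1 and from -0.12 to -3.2e-05 without any other single library. Rpph1 overlaps Ccnb1ip1 on its own strand, so reads over exons of both were left out of its count. The fall of the vault RNA was therefore not shown to differ from that of Rpph1, nor shown to be alike. Both 7SL genes, Rn7s1 and Rn7s2, RNA components of the signal recognition particle, were called lower in edgeR at few counts: Rn7s1 fell by 5.17 (SE 1.21, adjusted p = 0.0197) and Rn7s2 fell by 5.33 (SE 1.36, adjusted p = 0.0261). In edgeR, leaving out variation A replicate 3, variation B replicate 1 or variation B replicate 2 ended both calls (adjusted p of 0.0632, 0.113 and 0.105 for Rn7s1, and 0.0821, 0.0893 and 0.137 for Rn7s2), and leaving out variation A replicate 2 ended that of Rn7s2 (0.167). The log2 fold change of Rn7s1 was -3.44 without variation A replicate 3 and -3.42 with replicate number as a block. That block also ended the call of Rn7s2 (-4.43, adjusted p = 0.0705 in edgeR). Each 7SL gene overlaps 2 annotated genes on its own strand, and reads shared by overlapping genes were left out. Bc1, a brain cytoplasmic RNA, had 6, 1 and 0 counts in variation A and 23 and 72 in variation B (log2 fold change -0.21, adjusted p = 0.900 in edgeR), and its sign turned with library totals alone. Terc, the telomerase RNA, and both annotated entries of Rmrp, the RNA of RNase MRP, had 0 counts in every library, but each shares its place with another gene on the same strand, so that reads over both were left out.

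Among all genes tested, 11.0% rose and 12.4% fell in edgeR. Among short noncoding genes with 80 to 160 bases of exon, 117 besides the members were tested, of which 49 rose and 21 fell in edgeR, with a median log2 fold change of 1.31. With library totals alone 75 rose and 16 fell, and with TMM factors from short noncoding genes 31 rose and 25 fell. Of the 117 genes, 34 had a lower log2 fold change than Rny1, 29 a lower one than Rny3 and 25 a lower one than Vaultrc5. This placement below the middle turned with the filter on low counts. With at least 10 counts required in every library, 34 of these genes remained, of which 10 rose and 17 fell, with a median of -2.46. Of the 34, 19, 19 and 18 were below Rny1, Rny3 and Vaultrc5, which put all 3 members above the middle. In the smaller variation A libraries 10 counts are a higher CPM than in variation B, so this filter takes out genes low in variation A. Of the 117 genes, 7 were at 0 in all of variation A and 0 were at 0 in all of variation B. Both placements thus depend on the filter, and neither is a result about the members. Classes of any length were also counted. The 107 small nucleolar RNA genes tested had a median of 2.06, and 60 rose and 4 fell. The 40 snRNA genes had a median of -4.83, and 5 rose and 25 fell. The snRNA share of variation A replicate 1 was near that of variation B, as given above. The 8 other misc_RNA genes had a median of -0.68, and 0 rose and 3 fell. In the plot of short noncoding genes the 3 members lie above most, but not all, snRNA genes.

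**Figure D4:**
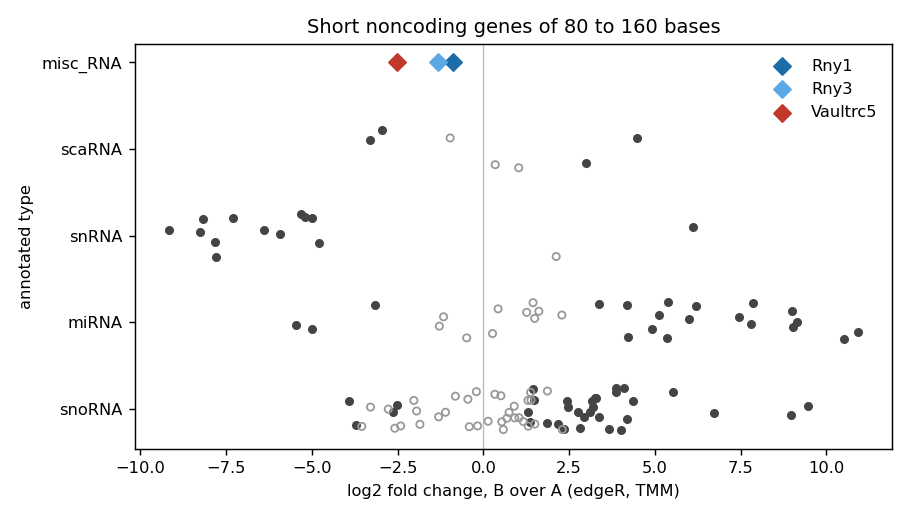
Log2 fold change of variation B over variation A (edgeR, TMM factors) for short noncoding genes of 80 to 160 bases by annotated type, filled where called, with Rny1, Rny3 and Vaultrc5 as diamonds; vertical scatter within a type carries no value. The members lie at -0.88, -1.34 and -2.52, to the right of most snRNA genes; with library totals alone both Y RNAs lie above 0.

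The mRNAs of the proteins that bind these RNAs were counted in the same libraries, as fragments of longer transcripts. Counting ignored strand, so reads over exons shared with a gene on either strand were left out. By gene span, Ssb overlaps 2 annotated genes, Srsf2 2, Mvp 1, Nsun2 4 and Ptbp1 4, among others. Among all genes tested, 11.0% rose and 12.4% fell in edgeR. Of 10 listed genes for Y RNA binding proteins, 9 were tested, 1 rose and 2 fell in edgeR, with a median log2 fold change of 0.25. Ssb, which encodes the La protein, had 87, 27 and 4 counts in variation A and 23327 and 27678 in variation B. It rose by 4.87 (SE 0.68, adjusted p = 0.00361), and was called higher in all 14 alternatives that tested it, with log2 fold changes of 3.90 to 6.15. Trove2, which encodes Ro60, had 17, 11 and 1 counts in variation A and 649 and 580 in variation B. Its log2 fold change of 1.48 (SE 0.49, adjusted p = 0.0604 in edgeR) was not called, and was 0.67 to 2.88 over its alternatives. It was called higher by DESeq2 (adjusted p = 0.0459), with library totals alone (0.0113) and, in edgeR, without variation A replicate 1 (0.00276), over a range of 0.00276 to 0.706. The genes that fell were Mov10, an RNA helicase (-1.86), and Ptbp1, a splicing regulator that binds pyrimidine-rich RNA (-1.59), neither of which changed sign under any scaling. In edgeR both calls were lost with library totals alone, at -0.36 for Mov10 and -0.08 for Ptbp1. They were also lost without variation B replicate 1 (adjusted p = 0.0918 and 0.0929) and without variation B replicate 2 (0.0893 and 0.160), and with TMM factors from short noncoding genes (-2.39 and -2.21, adjusted p = 0.0856 and 0.120).

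Of the 6 genes for vault particle and vault RNA proteins, all were tested, and 0 rose and 2 fell in edgeR and in DESeq2, with a median of -0.23 and 0 others below an unadjusted p of 0.05. Among all genes tested, 11.0% rose and 12.4% fell in edgeR. Mvp, the shell protein, had 36, 37 and 13 counts in variation A and 210 and 224 in variation B, and fell by 1.69 (SE 0.35, adjusted p = 0.0139). Srsf2, a splicing factor, fell by 1.45 (SE 0.29, adjusted p = 0.0118). In edgeR the call of Mvp was lost with library totals alone (-0.25), without variation A replicate 3 (adjusted p = 0.0520), without variation B replicate 1 (0.119) and without variation B replicate 2 (0.136), and with TMM factors from short noncoding genes (-2.37, 0.0760). That of Srsf2 was lost with library totals alone (-0.0072), without variation B replicate 1 (adjusted p = 0.0966) and without variation B replicate 2 (0.170), and with TMM factors from short noncoding genes (-2.20, 0.122). The other vault proteins did not pass the test: Parp4 had a log2 fold change of 0.74 (adjusted p = 0.224), which turned to -0.12 with TMM factors from short noncoding genes and was called higher without variation A replicate 1 (1.21, adjusted p = 0.00540) and with library totals alone (2.12, 0.0232). Tep1 had a log2 fold change of -0.31 (adjusted p = 0.476), which turned to 1.17 with library totals alone and was then called higher (adjusted p = 0.0289). Nsun2, the methyltransferase that modifies vault RNA, had a log2 fold change of -0.14 (adjusted p = 0.842), which turned to 1.20 with library totals alone. Dicer1, the most counted gene of the list, had a log2 fold change of 0.63 (adjusted p = 0.1575 in edgeR). Whether Vaultrc5 and the mRNA of its shell protein fell by different amounts was not tested.

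**Figure D5:**
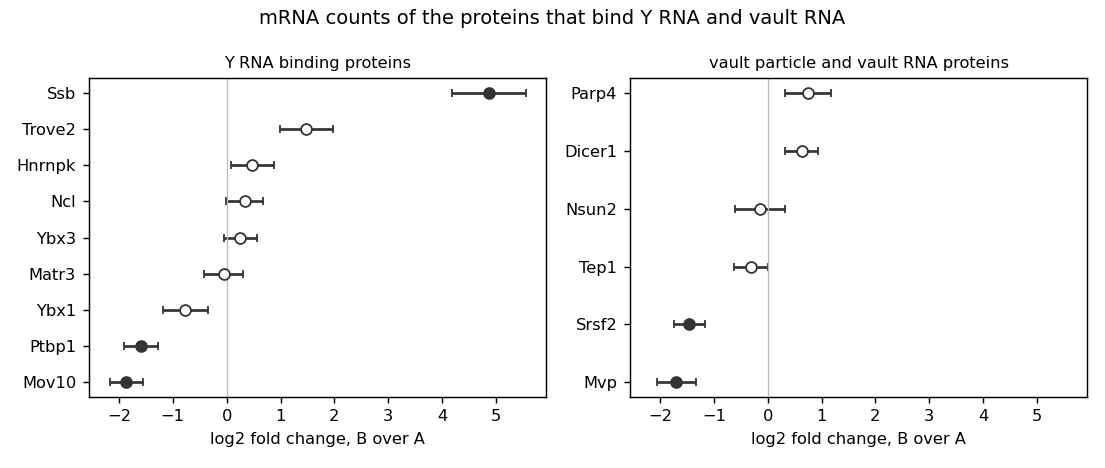
Log2 fold change of variation B over variation A (edgeR, TMM factors), with 1 SE to each side, for the mRNAs of Y RNA binding proteins (left) and of vault particle and vault RNA proteins (right), filled where called. Ssb stands apart at 4.87, and Mvp and Srsf2 lie at -1.69 and -1.45; the signs of Parp4, Tep1 and Nsun2 depend on the scaling.

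RNA polymerase III makes all 3 RNAs, and 35 of the 37 listed genes for its subunits and factors were tested. Among all genes tested, 11.0% rose and 12.4% fell in edgeR. Of the 35 listed genes, 7 rose and 2 fell in edgeR, with a median log2 fold change of 0.01 beside 0.05 for all genes. Those with the smallest p among the genes that rose were Snapc1 (2.97), a subunit of the complex that binds the upstream promoters of Y RNA and U6 genes, Polr3g (1.92), a polymerase III subunit, Bdp1 (1.96), a part of transcription factor IIIB, and Gtf3c4 (1.39), a part of transcription factor IIIC. The genes that fell, Polr2f (-1.67) and Polr2l (-2.58), encode subunits that the nuclear RNA polymerases share. Without variation B replicate 2, the calls of Polr3g (adjusted p = 0.0715), Bdp1 (0.118), Gtf3c4 (0.104), Polr2f (0.172) and Polr2l (0.181) were lost in edgeR. Without variation B replicate 1, those of Polr3g (0.102), Gtf3c4 (0.124) and Polr2f (0.232) were lost in edgeR, and without variation A replicate 3 those of Bdp1 (0.0501), Polr2f (0.115) and Polr2l (0.101). Without variation A replicate 2, Polr2f (0.121) and Polr2l (0.118) were not called in edgeR. Snapc1 was called in edgeR whichever library was left out. With TMM factors from short noncoding genes, none of the 4 named genes that rose was called (log2 fold change and adjusted p of 2.45 and 0.0519 for Snapc1, 1.32 and 0.376 for Polr3g, 1.23 and 0.413 for Bdp1, 0.73 and 0.673 for Gtf3c4), nor was Polr2f (adjusted p = 0.165) in edgeR. With library totals alone Polr2f was at -0.09 and Polr2l at -1.14, neither called in edgeR. Polr2f kept its call in 6 of 15 alternatives and Polr2l in 8 of 13. Of 13 listed genes for 3′ end processing and decay of small RNAs, all were tested and 0 were called in edgeR, with a median of -0.26; Parn, a poly(A)-specific ribonuclease named after its values were seen, was below an unadjusted p of 0.05 (log2 fold change -1.17, adjusted p = 0.0559), and DESeq2 called 1 of the 13 lower.

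The genes whose profiles over the 5 libraries lay closest to each member were found by the root mean square distance of centred log2 CPM after TMM scaling. For Rny1 these were Snora21 (distance 0.0409), Lamtor1 (0.0855) and Alg3 (0.0989). For Rny3, Fdxr (0.0493) and Lamc1 (0.0512) were among the closest, and for Vaultrc5 they were Ccnd3 (0.0740), Cfl1 (0.103) and Mvd (0.106). The distances between the members themselves were 0.455 between Rny1 and Rny3, 0.572 between Rny3 and Vaultrc5 and 0.886 between Rny1 and Vaultrc5.

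The labelled cell type was checked against marker genes. All 8 T lymphocyte markers were tested, Thy1 was the most counted, and their summed CPM was 545, 398.5 and 381 in variation A and 1742 and 1705 in variation B, on library totals, the scale on which the median of all genes was itself 1.50 higher on the log2 scale. With TMM factors 2 of 8 were called higher in edgeR (Cd3e and Cd3g) and 0 lower, beside 11.0% higher and 12.4% lower among all genes tested. Below an unadjusted p of 0.05 there were 3 with a positive and 2 with a negative log2 fold change, the latter Cd5 (-0.96) and Cd2 (-1.27), which were named after their values were seen. None of the B cell, erythroid, epithelial or fibroblast markers reached the filter on low counts. The summed CPM of the 4 myeloid markers was 0, 2.67 and 1.69 in variation A and 4.53 and 5.79 in variation B. Lyz2, the most counted, was at 0 in all of variation A and at 3.34 and 5.79 CPM in variation B. Csf1r was at 0, 1.56 and 1.69 CPM in variation A and 0.229 and 0 in variation B, and it, Cd14 and Itgam were too low to be tested. The rise of Lyz2 was a log2 fold change of at least 2.12 after TMM scaling, with 3 counts over the variation A libraries together as the floor. A floor of 3 counts in each library would lower this bound. The part of such cells in the values of the Y RNAs and vault RNA was not tested.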

How the data were processed

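Surface-seq libraries of EL4 membrane-coated particles (3 of variation A, 2 of variation B) were compared. The deposited values are raw counts per gene: per the file headers and the study's methods, the authors trimmed reads with Trimmomatic 0.36, mapped them with STAR 2.7.3a and counted exons with featureCounts 1.6.4, which ignored strand and left out multi-mapped reads and reads over several genes. Symbols and types were matched by gene ID to GENCODE M21 (55144 of 55385). The members and gene lists were chosen with earlier results of these data known. Named genes were the members, their main protein partners, up to 4 called genes per list and direction, other small RNAs and the closest profiles (prior count 2). Fits used R 4.3.3 with edgeR 4.0.16 (filterByExpr, TMM factors, quasi-likelihood test, checked on simulated data) and, as an alternative, DESeq2 1.42.0. Apart from the genes changed on purpose, the simulated libraries shared a mean profile. The check therefore did not cover the differences in composition between the real libraries. Ratios and shares were compared with two-sided exact permutation tests (scipy 1.17.1), whose smallest p was 0.1. The ratios to Rn7sk and Rpph1, and a share of short noncoding counts, were added after the values were seen. The confidence level was 95% and the floor 3 counts, or 1.30, 0.666 and 2.53 CPM in variation A and 0.137 and 0.131 in variation B. Annotated transcripts of GENCODE M21 were searched with blastn 2.17.0, and Vaultrc5 was folded with RNAfold 2.7.2. Alternatives were other scaling factors, filters, thinning, a replicate block and leaving out each library. Replicate numbers did not pair libraries: over 10287 genes, deviations of same-numbered libraries correlated at -0.10 and -0.03.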

Additional observations from a re-analysis of the deposited data

How the results depend on the processing

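The log2 fold changes of Rny1, Rny3 and Vaultrc5 were below 0 in all 15 alternatives except library totals alone, which gave 0.72 for Rny1 and 0.19 for Rny3. Vaultrc5 kept its call in 13 of 15 and Rny3 in 7 of 15. With library totals Vaultrc5 was at -0.98 without a call, since its fold was under 2. Rny3 lost its call with TMM factors from short noncoding genes (-1.91), without a filter on low counts (-1.12) and with the replicate block (-1.23). Leaving out each library gave -1.31 to -0.55 for Rny1, -1.55 to -1.19 for Rny3 and -2.78 to -2.35 for Vaultrc5. The replicate block gave -0.54 for Rny1 and -2.35 for Vaultrc5, which stayed called. Against 2411 genes called, there were 5956 with library totals (94.9% of them higher, against 47.1%), 772 with short noncoding factors (17.4% higher), 1314 with at least 10 counts in every library, 1574 with the replicate block, and 328 to 4335 with a library left out, the highest without variation A replicate 1 and the lowest without variation B replicate 2. Against 17 listed genes called, there were 33, 5 and 8 with library totals, short noncoding factors and at least 10 counts. There were 8 to 25 with a variation A library left out. The summed share reversed to -0.0180 without ribosomal RNA and mitochondrial genes and ranged from -0.00272, without variation B replicate 1, to 0.00937 with a library left out. With library totals alone Tep1 turned to 1.17, Nsun2 to 1.20, Rn7sk to 1.12 and Bc1 to 1.12. Parp4 turned to -0.12 with short noncoding factors, and Nsun2 turned to 0.0586 unfiltered and 0.0583 with at least 10 counts, and ranged from -0.39 to 0.51 with a library left out, the highest without variation A replicate 1. Bc1 turned to 0.0117 unfiltered and ranged from -1.22 to 1.90 with a library left out. The log2 difference of Vaultrc5 per Rpph1 ranged from -0.12 to 0.37 with a library left out and was -0.0486 with the replicate block. The causes were not tested. Counting error was widest in variation A, where the 3 genes had 108 to 544 counts in a library.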
